A study of Mus musculus with 6 samples.

Results

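The genes described are 10 nuclear genes whose products copy, transcribe or regulate the mitochondrial genome or stabilise its RNA: Tfam, Tfb1m, Tfb2m, Polrmt, Polg, Twnk, Ssbp1, Lrpprc, Slirp and Nrf1. They were selected by gene name, with earlier results of these data known, and all 10 were found among the 54532 genes of the deposited FPKM table (fragments scaled by gene length and library). Of the 10 genes, 8 passed the filter for testing, an FPKM averaging at least 1 across libraries. Twnk (mean 0.828 FPKM) and Slirp (mean 0.0200 FPKM) did not.

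Mitochondria keep a small circular genome whose mRNAs encode only a few proteins of the respiratory chain. The proteins that transcribe and copy this genome are made from nuclear genes. Transcription is carried out by the single-subunit RNA polymerase POLRMT, with TFAM, which packages and bends mitochondrial DNA at its promoters, and TFB2M, which melts the promoter. Replication uses the polymerase POLG, the helicase Twinkle (Twnk) and the single-stranded DNA-binding protein SSBP1. Outside the nucleoid, LRPPRC and SLIRP form a complex that keeps mitochondrial mRNA polyadenylated and stable. NRF1 is a nuclear factor that acts on many promoters of such genes. In macrophages, newly made and oxidised mitochondrial DNA has been linked to activation of the NLRP3 inflammasome, which is the setting of these samples.

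Peritoneal macrophages came from wild-type C57BL/6J mice aged 6 to 8 weeks, 5 days after injection of 1 mL of 3% thioglycolate, so the cells are recruited inflammatory macrophages rather than resident ones. Control cells were untreated. Model cells had LPS at 0.5 μg/mL for 5.5 h and then ATP at 2 mM for 0.5 h, and MUS cells had the same LPS and ATP plus 50 μM muscone, a macrocyclic ketone from musk, from 0.5 h ahead of ATP. Each group had 2 libraries of poly-A-selected RNA, and nothing says whether they came from separate mice, so p-values measure the spread between these libraries, which may be technical.

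The 6 libraries held 15526321 to 17135442 fragments on genes, which could be recovered as whole numbers from FPKM and gene length. All 8 macrophage markers were present, with a summed level of 9574 to 14283 FPKM, most of it Lyz2 (7275 to 12007 FPKM). The neutrophil markers S100a9, Elane, Ly6g and Retnlg and the eosinophil markers Prg2, Ear1 and Epx were at 0 in every library. The 7 neutrophil markers summed to 13.7 and 30.7 FPKM in Control and 50.3 to 110 elsewhere, nearly all of it S100a8, with Cxcr2 and Mpo at most at 0.143 FPKM. The 8 T and innate lymphocyte markers summed to 74.7 and 106 FPKM in Model and 123 to 164 elsewhere, nearly all of it Il7r (73.2 to 163 FPKM), with each of the others at most at 0.930 FPKM. Mesothelial and fibroblast markers summed to 17.3 to 32.8 FPKM, and B cell, eosinophil and mast cell markers to 0.234 to 6.17 FPKM. The part of these cells in the results was not tested. Model replicate 1 stood apart in having 24906 genes detected, against 17406 to 19200 elsewhere, and 2349 FPKM on repeat-copy genes, against 2.41 to 62.1. In such bulk samples, fewer cells of a type and less RNA per cell cannot be told apart.

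The members differed widely in level. Averaged over the 6 libraries, the FPKM order was Lrpprc (7.62), Tfam (6.32), Tfb2m (3.87), Polg (3.33), Nrf1 (2.27), Polrmt (1.65), Ssbp1 (1.37), Tfb1m (1.01), Twnk and Slirp. Most neighbours in this order were not separated by their spread. Lrpprc exceeded Tfam in 4 of 6 libraries, for example, and Polrmt exceeded Ssbp1 in 3 of 6. Polg exceeded Nrf1 in all 6, and Twnk exceeded Slirp in all 6. For 9 of the 10 members, the gene length in the table equals the merged length of all exons, which for Nrf1 was 10282 bases against 3584 in its longest coding transcript. For Twnk it equals that of the longest coding transcript, 3488 bases against 4013 merged. Levels between genes depend on these lengths.

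**Figure D1:**
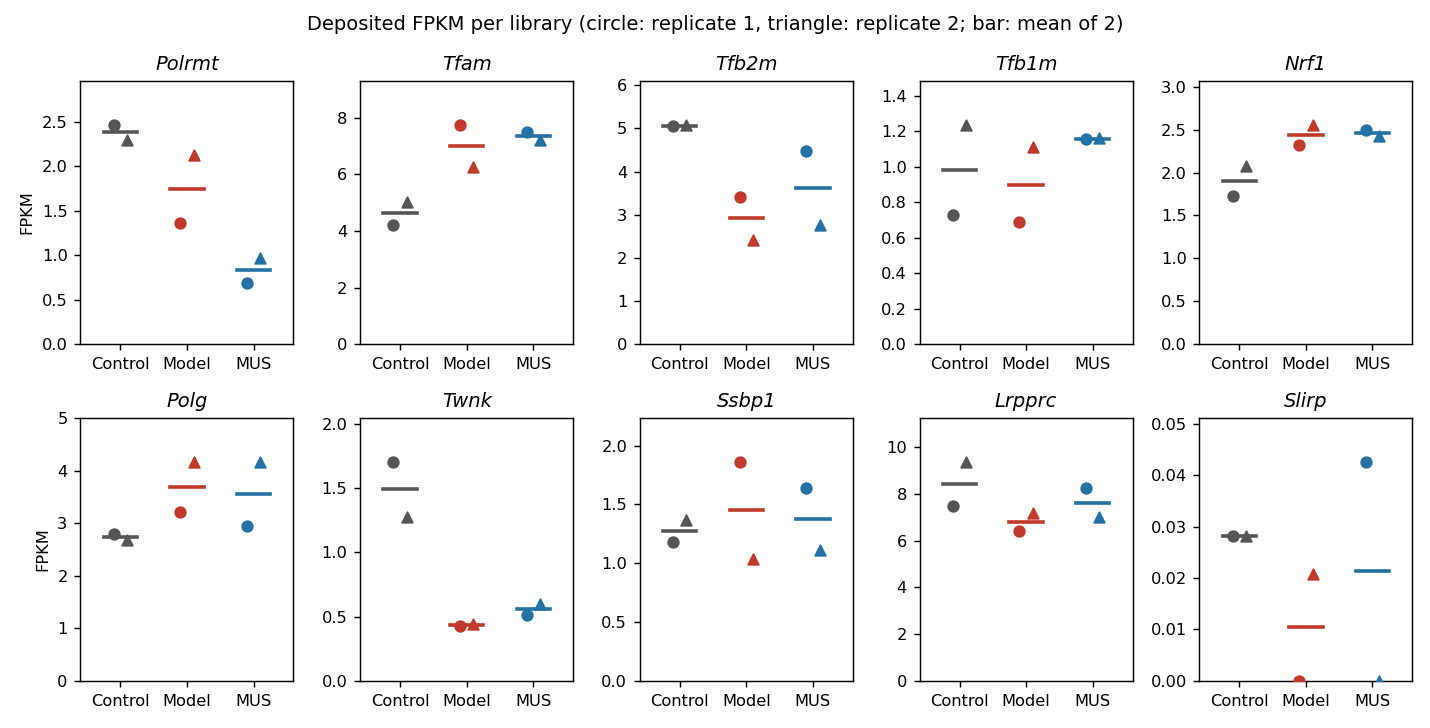
Deposited FPKM (vertical axis, from 0, a separate scale for each gene) of the 10 genes in the 2 Control, 2 Model and 2 MUS libraries, with a bar at the mean of each group. Twnk is higher in both Control libraries (1.71 and 1.28 FPKM) than in the other 4, Polrmt is lowest in MUS and Tfam higher in the 4 stimulated libraries on this deposited scale, and Slirp stays under 0.05 FPKM.

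A sequence feature that the choice of genes did not use was looked for in the promoters, taken from RefSeq (GRCm38.p6) as windows of 300 bases, from 250 before to 50 after the start site. Windows were found for all 10 genes. The ETS motif CCGGAAG, the kind of site that the mitochondrial biogenesis factor GABP binds, stood on either strand in the windows of 6 of the 10 genes (Tfam, Polrmt, Polg, Twnk, Ssbp1 and Slirp). Of the 7038 tested genes with a window, 22.8% held it, as did 8.86% of all 32851 windows. Twnk and Slirp, counted among the 6, were not tested genes. In Tfam, Polrmt, Polg and Ssbp1 the motif began within 47 bases upstream of the RefSeq start site, at -47, -43, -38 and -47. The gene positions behind the FPKM begin further upstream for Tfam, Polg and Ssbp1, so there the motif lies inside the gene. On the minus strand, Tfam begins at chr10:71238280 and Polg at chr7:79466362, and on the plus strand Ssbp1 begins at chr6:40471352. The motif of Polrmt, which begins at chr10:79746581 on the minus strand, is upstream by both. The NRF1 core motif GCGCATGCG occurred only in the Tfb2m window, at position 12 downstream of the start, against 4.65% of tested genes. Its looser form GCGCANGCG, which includes the core, was found in Tfb2m and Polrmt, against 16.9% of tested genes. A match describes these letters and is not evidence of binding. The stretches around the ETS motif are shown for the 5 genes with a measurable level, in transcript direction and with the motif, or its reverse complement CTTCCGG, in capitals.
Tfam, chr10:71238065-71238111, minus strand: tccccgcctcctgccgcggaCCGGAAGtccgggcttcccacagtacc
Polrmt, chr10:79746598-79746644, minus strand: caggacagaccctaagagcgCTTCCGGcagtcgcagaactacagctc
Polg, chr7:79466285-79466331, minus strand: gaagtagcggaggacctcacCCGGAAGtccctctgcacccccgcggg
Ssbp1, chr6:40471401-40471447, plus strand: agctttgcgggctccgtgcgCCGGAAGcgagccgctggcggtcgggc
Twnk, chr19:45006428-45006518, plus strand: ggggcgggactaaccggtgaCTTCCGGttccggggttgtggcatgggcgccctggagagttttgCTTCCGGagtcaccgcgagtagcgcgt

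Model vs. Control asks how LPS + ATP changed these genes. None of the 8 tested members was called: 0 had an adjusted p of at most 0.05 (limma on log2(FPKM + 1), Benjamini-Hochberg over the 9794 genes tested), whereas 17.3% of all tested genes did. By the stricter rule for DEGs, which also needs an absolute log2 fold change over 1, the background was 15.1% and the members again gave 0. At an unadjusted p under 0.05, 1 of the 8 members passed, Tfb2m, against 33.6% of tested genes. The members' log2 fold changes ran from -0.64 to 0.51 with a median of 0.01, beside a median of 0.04 over all genes tested. The libraries of the 2 groups did not overlap for 6 of the 8 (3 higher and 3 lower in Model), where 61.1% of all tested genes had no overlap, 32.6% being higher and 28.5% lower. With 2 libraries per group, a gene tested alone by exact permutation cannot go under p = 0.333, so the estimates rest on the spread that limma shares across genes.

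Within the transcription apparatus, Tfb2m (chr1:179528055-179546267, minus strand, GRCm38) had 5.05 and 5.08 FPKM in Control and 3.41 and 2.42 in Model. Both Model libraries were below both Control libraries. The log2 fold change was -0.64 (SE 0.26), with an unadjusted limma p of 0.0403 and an adjusted p of 0.129, and the difference was -0.46 between the libraries of batch 1 and -0.83 in batch 2. Of the 50-base stretches of Tfb2m transcripts, 31.9% also occur in the pseudogene Gm1818, which had 2.55 and 2.25 FPKM in Control and 2.75 and 1.80 in Model, so reads could be split between the 2 genes.

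Tfam (chr10:71225464-71238280, minus strand) lay on the other side. Its FPKM was 4.21 and 5.03 in Control and 7.74 and 6.27 in Model, with no overlap. The log2 fold change was 0.51 (SE 0.22, adjusted limma p 0.149), with differences of 0.75 in batch 1 and 0.27 in batch 2.

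Polrmt (chr10:79736123-79746581, minus strand) had 2.46 and 2.30 FPKM in Control and 1.36 and 2.12 in Model. Model replicate 2 lay close to Control and replicate 1 well below it. The log2 fold change was -0.32 (SE 0.24, adjusted limma p 0.383). Tfb1m, whose product methylates mitochondrial ribosomal RNA rather than starting transcription, had 0.727 and 1.24 FPKM in Control and 0.687 and 1.11 in Model. Its replicates differed more than its groups, with a log2 fold change of -0.06 (SE 0.25).

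Among the replication factors, Twnk (chr19:45006558-45012762, plus strand) showed the widest relative gap of the 10 members apart from Slirp, for which no ratio is given. It had 1.71 and 1.28 FPKM in Control and 0.427 and 0.444 in Model, resting on 136 and 102 fragments against 21 and 24. The mean FPKM in Model was 0.292 times that in Control, and all Model values lay below all Control values. Since Twnk missed the filter, it was tested only in alternatives. With no filter, the adjusted limma p was 0.168. The others were chosen after seeing the data. With genes of a mean FPKM of at least 0.5, its log2 fold change was -0.79 (SE 0.21, adjusted limma p 0.0504). When the recovered fragments were weighted with voom in limma at the same filter, it was -1.74 (SE 0.48, adjusted p 0.0377). Of the exon bases of Twnk, 12.6% (507 bases) overlap Mrpl43 on the opposite strand, a ribosomal protein gene at a mean of 19.9 FPKM, and the library protocol names no step that marks strand.

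Polg had 2.80 and 2.69 FPKM in Control and 3.22 and 4.17 in Model, both Model libraries being higher. Its log2 fold change was 0.32 (SE 0.23, adjusted limma p 0.361). Ssbp1 had 1.18 and 1.37 FPKM in Control and 1.86 and 1.03 in Model, so the groups overlapped, with a log2 fold change of 0.09 (SE 0.26).

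Of the RNA stability pair, Lrpprc had 7.51 and 9.39 FPKM in Control and 6.41 and 7.18 in Model. The Model libraries were lower without overlap, with a log2 fold change of -0.27 (SE 0.22, adjusted limma p 0.424). Slirp was close to absent from the table. Its fragments numbered 2 and 2 in Control, 0 and 1 in Model, with 2 and 0 under muscone, all under the limit of 3 fragments that a count of 0 allows, so no fold change is given. Of its exon bases, 97.8% (3036 of 3104) lie over exons of genes on the opposite strand, 2914 of them over Snw1, which had a mean of 9.19 FPKM. How the fragments in this overlap were assigned is not given in the sources used here, and whether the overlap accounts for the low level of Slirp was not tested. Nrf1, the nuclear regulator, had 1.72 and 2.08 FPKM in Control and 2.32 and 2.55 in Model, both Model libraries being higher, with a log2 fold change of 0.25 (SE 0.20, adjusted limma p 0.421).

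**Figure D2:**
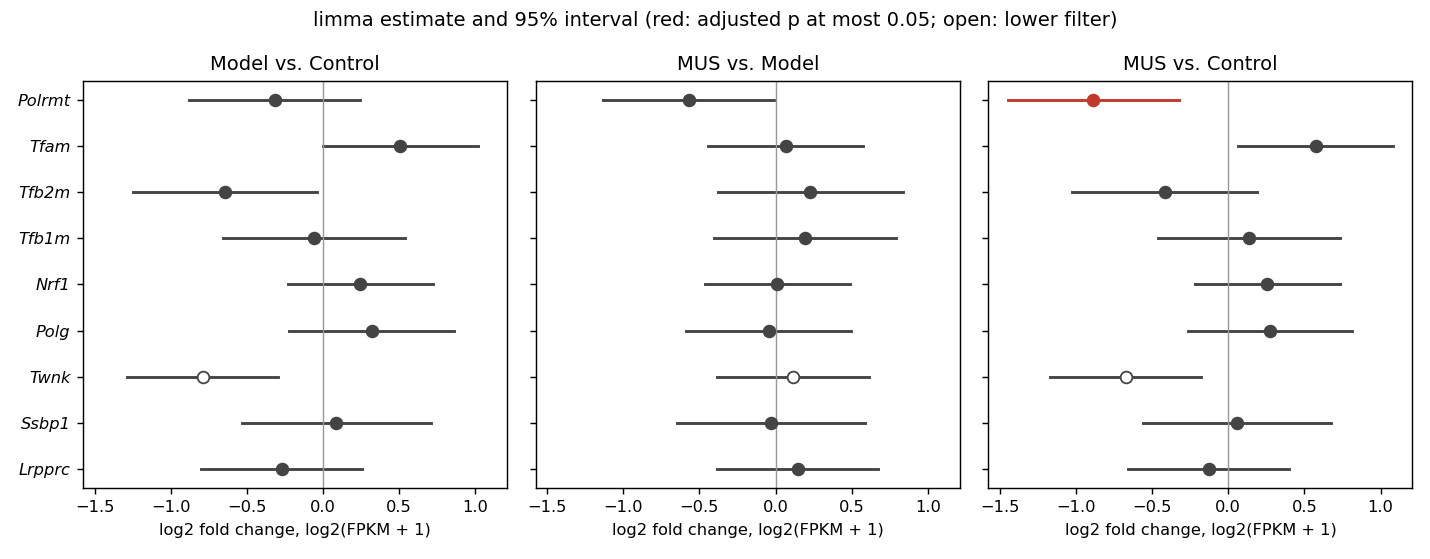
Log2 fold change on log2(FPKM + 1) (horizontal axis) with its 95% interval from limma for 8 tested members and Twnk (open circle, at a mean FPKM of at least 0.5) in the 3 comparisons. Only Polrmt in MUS vs. Control (-0.89) is red for an adjusted p of at most 0.05, and the members' intervals in MUS vs. Model include 0 except that of Polrmt, which ends at -0.01.

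MUS vs. Model asks what muscone changed in cells given the same LPS and ATP. No member was called, and neither was any other gene: 0 of 9794 (0%) reached an adjusted p of at most 0.05 in limma, with a smallest adjusted p of 0.139. With the replicate number as a block there were 4 DEGs over all genes and 0 among the members. At an unadjusted p under 0.05 there were 825 genes (8.42%), among them 1 of the 8 members, Polrmt. The members' log2 fold changes had a median of 0.04, beside 0.01 over all genes. The libraries did not overlap for 2 of 8 members, Polrmt and Tfb1m, where 42.1% of all tested genes had no overlap (21.2% higher and 21% lower). This comparison and Model vs. Control share the Model libraries.

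Polrmt had 1.36 and 2.12 FPKM in Model and 0.692 and 0.972 in MUS, from 90 and 154 fragments against 49 and 74. Both MUS libraries were lower. The log2 fold change was -0.57 (SE 0.24, unadjusted limma p 0.0469, adjusted p 0.587), with -0.48 in batch 1 and -0.66 in batch 2. Tfb1m had 0.687 and 1.11 FPKM in Model and 1.15 and 1.16 in MUS, with a log2 fold change of 0.19 (SE 0.25). Tfb2m had 4.48 and 2.77 FPKM in MUS, which overlapped Model, with a log2 fold change of 0.23 and a 95% interval from -0.38 to 0.83.

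The remaining members were close between MUS and Model, but the intervals still allow sizeable differences. Tfam had 7.48 and 7.21 FPKM in MUS, with a log2 fold change of 0.07 and an interval from -0.44 to 0.57. Lrpprc had 8.24 and 7.01 FPKM, at 0.14 (-0.38 to 0.67). Polg had 2.96 and 4.18 FPKM, at -0.05 (-0.59 to 0.50). Nrf1 had 2.50 and 2.42 FPKM, at 0.01 (-0.46 to 0.49), and Ssbp1 had 1.64 and 1.11 FPKM, at -0.03 (-0.65 to 0.59). Twnk had 0.512 and 0.600 FPKM in MUS, slightly above both Model libraries, with a log2 fold change of 0.12 at the lower filter (adjusted limma p 0.931).

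MUS vs. Control compares the muscone group with untreated cells, and shares libraries with both comparisons above. Polrmt was the only member called, with an adjusted limma p of 0.0363, while 24.4% of all tested genes were called by that rule and 11.4% were called as lower. On log2(FPKM + 1), which understates fold changes of low genes, Polrmt missed the DEG rule on size. With voom it was at -1.52 (adjusted limma p 0.0238) and met that rule. In the fit without voom, 0 of 8 members were DEGs, against a background of 20.2%. At an unadjusted p under 0.05 there were 2 members, Polrmt and Tfam, against 39.7% of tested genes. Polrmt fell by 0.89 on the log2 scale (SE 0.24), by 1.03 in batch 1 and by 0.74 in batch 2, and its mean FPKM in MUS was 0.350 times that in Control. Leaving out either Control library (adjusted p 0.124 and 0.0696) or either MUS library (0.240 and 0.118) ended this limma call.

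Tfam was at 0.57 (SE 0.22, adjusted limma p 0.0932) and Tfb2m at -0.42 (SE 0.26, adjusted limma p 0.269). Twnk was at -0.67 at the lower filter (SE 0.21, adjusted limma p 0.0628) and at -1.39 with voom (adjusted p 0.0490). The libraries did not overlap for 5 of the 8 tested members, where 73.3% of all tested genes had no overlap (39.6% higher and 33.8% lower). Tfam, Polg and Nrf1 were higher in MUS, and Polrmt and Tfb2m lower.

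The call of Polrmt moved with a correction for transcript GC content. Its longest transcript has 60.5% GC, above 97.6% of the tested genes, whose median is 48.9%. Across the tested genes of these libraries, the median log2 fold change in MUS vs. Control went from 0.35 in the 10% of genes with the lowest GC to -0.72 in the 10% with the highest. The same medians went from 0.25 to -0.28 in Model vs. Control and from 0.08 to -0.37 in MUS vs. Model. Whether this trend was technical or part of the response to treatment was not tested, and a correction for GC removes both. After a quadratic trend on GC was removed from each library, an alternative chosen after seeing the data, Polrmt was at -0.01 in MUS vs. Control (SE 0.23, adjusted limma p 0.977), at -0.13 in MUS vs. Model and at 0.12 in Model vs. Control. Tfb2m, with 42.5% GC, moved the other way: it was at -0.84 in Model vs. Control (adjusted limma p 0.0527) and at -0.77 in MUS vs. Control (adjusted p 0.0610). With the replicate number as a block in the same GC-corrected fit, these became adjusted p-values of 0.0377 and 0.0417. Twnk, with 53.2% GC, was at -0.69 in Model vs. Control (adjusted limma p 0.0634) at the lower filter.

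**Figure D3:**
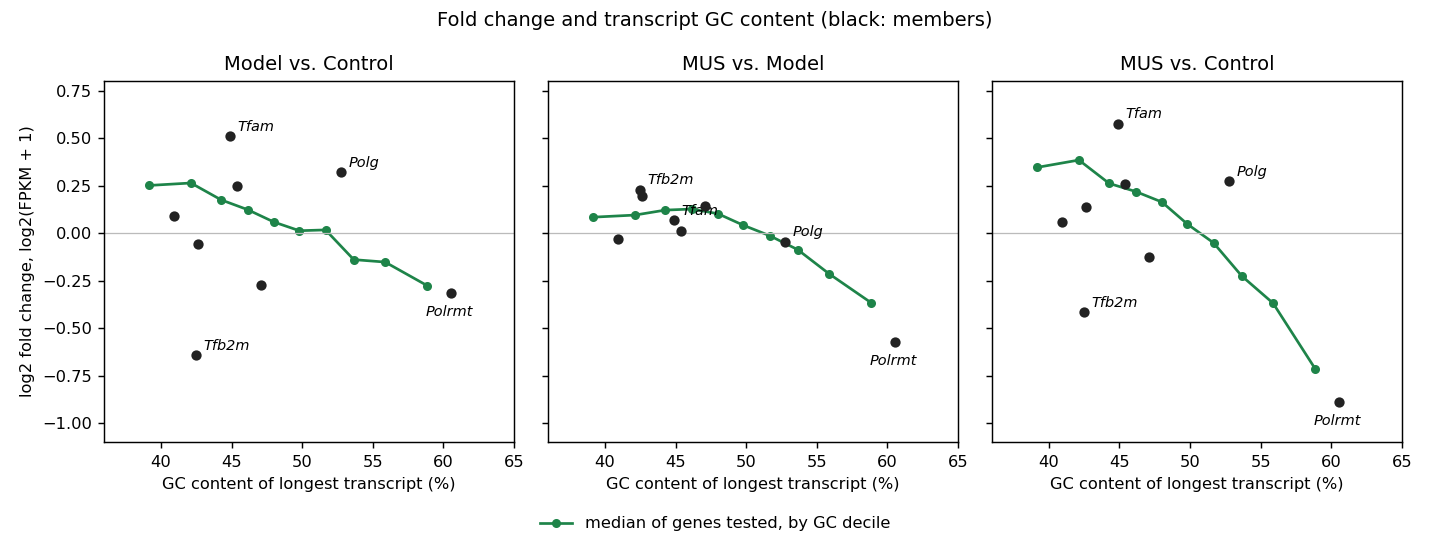
Log2 fold change on log2(FPKM + 1) (vertical axis) against GC content of the longest transcript in percent (horizontal axis) for the 8 tested members (black, 4 of them named) and for the median of each 10% of the tested genes by GC (green line), in the 3 comparisons. Polrmt, at 60.5% GC, continues the green line at its high-GC end, while Tfb2m, at 42.5% GC, lies below it in both comparisons with Control.

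The scale of the deposited values also mattered for the comparisons with Control. The library scale behind FPKM was 1.45 and 1.34 times the fragments on genes in Control, but 0.909 to 0.998 times in the other 4 libraries, and followed the median-ratio size factors of the libraries within -1.28% to 0.991%. Rescaled to the fragments on genes, the median of all tested genes moved from 0.04 to -0.40 in Model vs. Control. Tfam then had 27.1 and 29.8 fragments for every 1000000 fragments on genes in Control, with 31.2 and 27.8 for Model and 30.9 and 31.6 for MUS, a log2 fold change of 0.04 in Model vs. Control (adjusted limma p 0.889). Relative to the median of all genes, it was at 0.44 on this scale and at 0.47 on the deposited one. Tfb2m was at -1.09 (adjusted limma p 0.0206) and Lrpprc at -0.76 (adjusted p 0.0428) in Model vs. Control on the fragment scale, both lower as shares of the library, and Polg, Nrf1 and Ssbp1 changed sign, to -0.10, -0.13 and -0.23. Relative to the median of all genes, these 3 stayed above it, at 0.30, 0.27 and 0.16. In MUS vs. Control, Polrmt was at -1.23 (adjusted limma p 0.0130) and Tfb2m at -0.86 (adjusted p 0.0337).

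**Figure D4:**
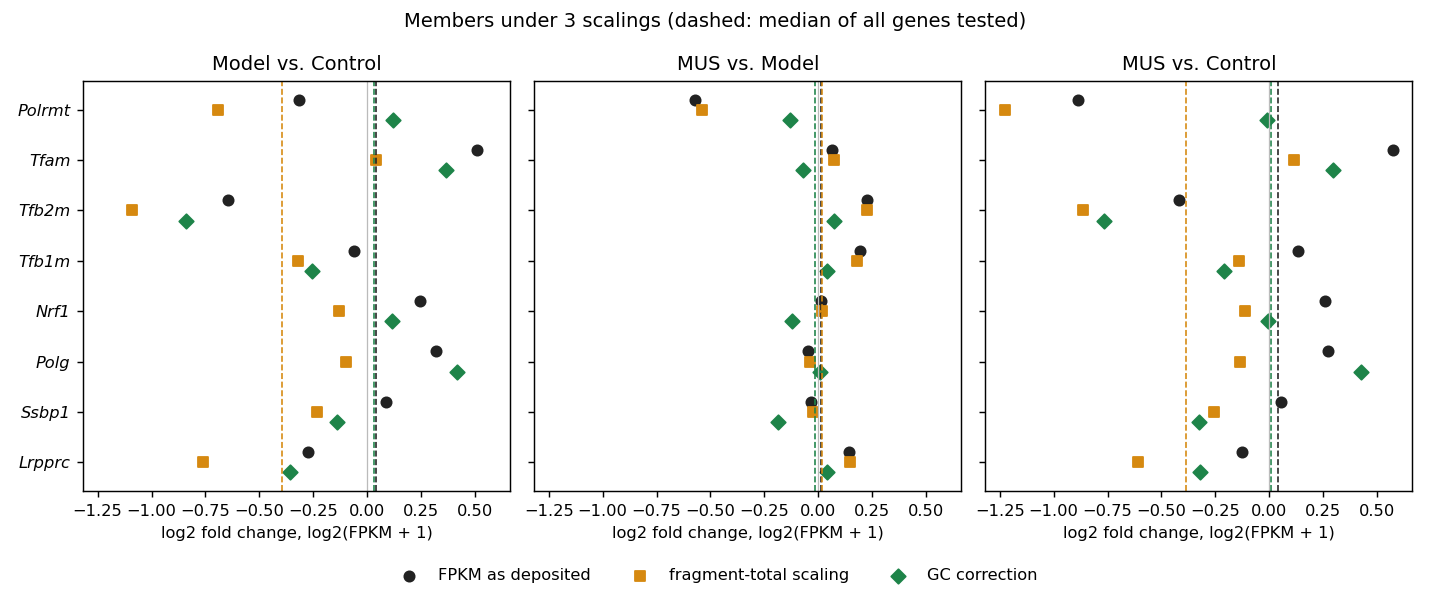
Log2 fold change on log2(FPKM + 1) (horizontal axis) of the 8 tested members in the 3 comparisons from FPKM as deposited (black), after scaling to fragments on genes (orange) and after GC correction (green), with dashed lines at the median of all tested genes for each. The orange points sit to the left of the black ones in the comparisons with Control, by about the shift of the median of all genes, and the green point of Polrmt is near 0 in each panel.

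Other genes of the same pathways, from lists drawn up by function, included 6 that were called in Model vs. Control. Over all tested genes, 10.3% rose and 6.94% fell by the adjusted p of that limma fit. Of 3 tested genes of mitochondrial transcription, 0 were called (median log2 fold change 0.50). Of 8 tested genes of mtDNA replication and repair, 2 rose and 0 fell (median -0.03). Of 11 genes of mtDNA nucleotide supply, 2 rose and 1 fell (median -0.17). Of 20 genes of mitochondrial RNA processing and decay, 1 rose and 0 fell (median -0.16), and of 9 nuclear regulators of mitochondrial biogenesis 0 were called (median 0.03). In MUS vs. Model, 0 genes of these lists were called. Whether the lists differ from the members was not tested.

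The largest difference belonged to Cmpk2, the mitochondrial nucleotide kinase that supplies precursors for mtDNA synthesis and is an interferon-stimulated gene. Control libraries had 1.19 and 16.7 FPKM, Model libraries 966 and 826, and MUS libraries 1050 and 878. Against Control, Cmpk2 rose in Model by 7.17 on the log2 scale (SE 0.86, adjusted limma p 0.00388), although the Control libraries themselves lay far apart. Samhd1, which degrades deoxynucleotides, had 17.8 and 17.4 FPKM in Control and 77.4 and 95.1 in Model, and rose by 2.22 (SE 0.28, adjusted limma p 0.00427). Tk2, the mitochondrial thymidine kinase, had 7.04 and 6.49 FPKM in Control and 3.65 and 3.05 in Model, and fell by 0.84 (SE 0.20, adjusted limma p 0.0331). The call of Tk2 was lost when any library was left out (adjusted limma p 0.0663 to 0.160).

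Pnpt1, a mitochondrial exoribonuclease subunit, had 5.61 and 8.09 FPKM in Control and 28.8 and 29.2 in Model, and rose by 1.95 (SE 0.28, adjusted limma p 0.00660). Rnaseh1, which removes RNA from RNA-DNA hybrids at replication origins, had 3.55 and 4.11 FPKM in Control and 11.3 and 7.11 in Model, and rose by 1.05 (SE 0.27, adjusted limma p 0.0372). Polg2, the accessory subunit of the polymerase that contains POLG, had 0.964 and 0.943 FPKM in Control and 2.36 and 2.43 in Model, and rose by 0.80 (SE 0.20, adjusted limma p 0.0373). The calls of Rnaseh1 and Polg2 were lost on the fragment scale (adjusted limma p 0.115 and 0.125), and that of Polg2 with the replicate number as a block (adjusted p 0.0536). Leaving out any library ended the call of Polg2 (adjusted limma p 0.0668 to 0.133), and leaving out any but Model replicate 2 ended that of Rnaseh1 (0.0654 to 0.169).

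In MUS vs. Control, Fastk and Gabpb1 were called as well, both named after their values were seen. Fastk, a mitochondrial RNA-binding protein gene, had 6.82 and 4.78 FPKM in Control, with 4.34 and 3.73 for Model and 1.33 and 2.20 for MUS, and fell by 1.30 (SE 0.26, adjusted limma p 0.0138). The transcript of Fastk has 57.4% GC, and after GC correction it was at -0.76 (adjusted limma p 0.0407, and 0.0545 with the replicate number as a block), no longer a DEG. Its call was lost with no filter (adjusted limma p 0.0824), and also without Control replicate 1 (0.0779) or MUS replicate 1 (0.133). Gabpb1, a subunit of the ETS-domain complex GABP, had 1.97 and 3.83 FPKM in Control and 8.45 and 6.52 in MUS, and rose by 1.15 (SE 0.29, adjusted limma p 0.0304), a call lost on the fragment scale (adjusted p 0.0788). It was also lost after GC correction (adjusted limma p 0.0569) and without Control replicate 1 (0.146), MUS replicate 1 (0.214) or MUS replicate 2 (0.0931).

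**Figure D5:**
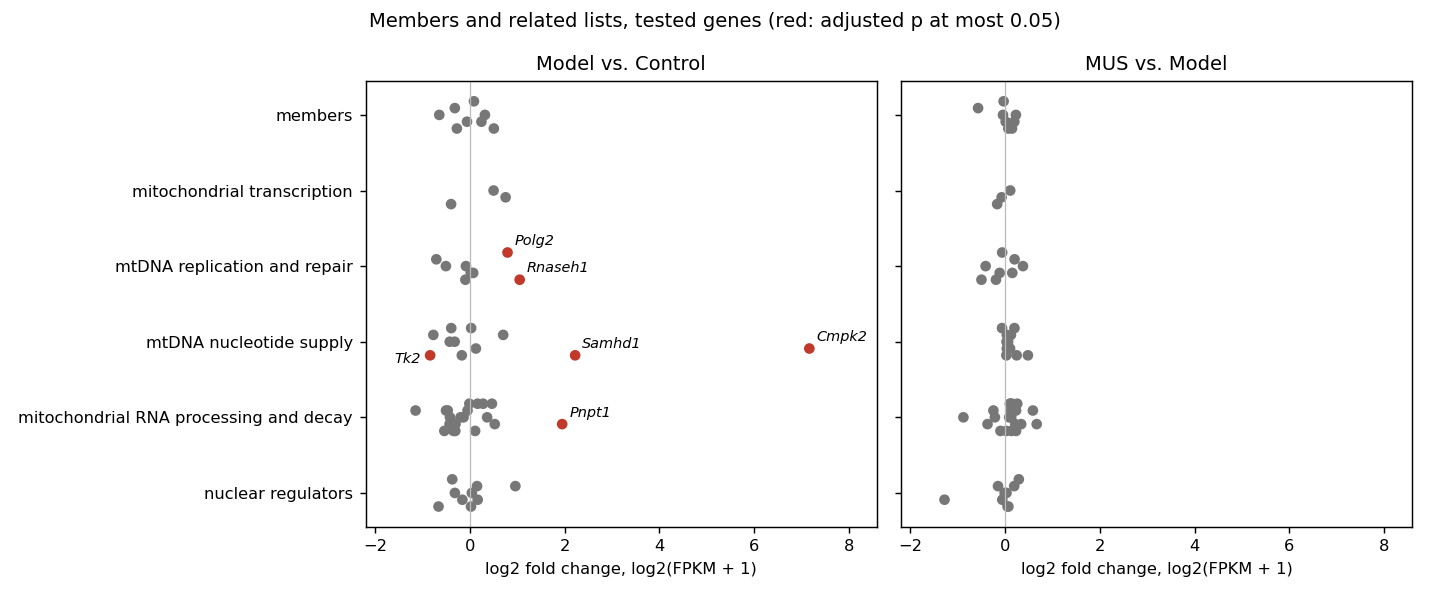
Log2 fold change on log2(FPKM + 1) (horizontal axis) of each tested gene of the members and of 5 related lists (rows, points spread vertically only for legibility) in the panels Model vs. Control, left, and MUS vs. Model, right, red for an adjusted limma p of at most 0.05. The 6 red points, Cmpk2, Samhd1, Pnpt1, Rnaseh1, Polg2 and Tk2, are all in Model vs. Control and none is a member.

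The mitochondrially encoded mRNAs, which the products of these genes make and stabilise, summed to 8209 and 8513 FPKM in Control, to 3479 and 4023 FPKM in Model and to 1386 and 2230 FPKM with muscone, with no overlap between groups. Control means of those tested ran from 3.39 FPKM (mt-Nd4l) to 2283 FPKM (mt-Co1), so the sums rest on the highest mRNAs. The reason for this range was not tested. Of 12 tested, 0 rose and 5 fell in Model vs. Control, 0 were called in MUS vs. Model and 8 fell in MUS vs. Control in limma, where 6.94%, 0% and 11.4% of all tested genes did so, with median log2 fold changes of -1.21, -1.22 and -2.56. In MUS vs. Model, 7 of the 12 had an unadjusted limma p under 0.05, against 8.42% of tested genes. Without overlap, 7 were lower and 0 higher in MUS, against 21% and 21.2% of tested genes. All 12 are read from the same small genome, so these are not counts of independent genes. Among the members, only the mean FPKM of Polrmt had the same order of the 3 groups on the deposited scale. That order was not kept after GC correction (0.12 in Model vs. Control and -0.01 in MUS vs. Control). The share of all tested genes with this order was not counted. For the mitochondrially encoded mRNAs, only values on the deposited scale are given. The association was not tested.

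The genes whose pattern over the 6 libraries was most like that of a member were found by the root mean square difference of log2(FPKM + 1), after centring each gene on its mean. For Tfam they were Atp5b (0.0292), the beta subunit of ATP synthase, and Maip1 (0.0501), against a spread of Tfam itself of 0.275 about its mean. Those nearest Polrmt were Tepsin (0.0568) and Fam160b2 (0.0837), against its own spread of 0.391. The closest to Tfb2m were Spdl1 (0.107) and Mmd (0.110), against 0.327. Anp32e (0.0207) and Dars (0.0397) were nearest Ssbp1, Ppig (0.0383) and Zfp518a (0.0489) nearest Lrpprc, Dbt (0.0357) and Herc4 (0.0376) nearest Nrf1, Srrt (0.0472) and Eps15l1 (0.0518) nearest Polg, and Hnrnpa3 (0.0470) and Edrf1 (0.0507) nearest Tfb1m. These likenesses rest on 6 libraries and share their depth and composition.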

How the data were processed

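RNA-seq was performed on mouse peritoneal macrophages in 3 groups of 2 libraries, mapped to groups by their titles. The authors deposited FPKM for each gene and library; the methods name RSEM, whereas the submitters' processing notes name HISAT2, featureCounts 1.5.0-p3 and GRCm39. The table places genes as on GRCm38: of 54495 identifiers also in GENCODE M21, 98.3% had identical coordinates. FPKM times gene length was a whole multiple of a step in every library (100% of values within 0.1 of a step), which gave fragments per gene. A 1 kb gene with 3 fragments would have 0.131 to 0.213 FPKM, and these limits cover counting error only. Columns without a sample numbered 0, and the 6 libraries were all used. The authors' DEGs came from DESeq2 1.20.0, and their comparison values were not used.

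The fit (R 4.3.3, limma 3.58.1) took log2(FPKM + 1) for 9794 genes averaging at least 1 FPKM, all 6 libraries in a model of 3 groups without a block, and eBayes with a trend (3 residual and 4.04 prior degrees of freedom, two-sided). Fold changes on this scale understate those of low genes. p-values were adjusted by Benjamini-Hochberg over the genes tested. A DEG had an adjusted p no higher than 0.05 and a log2 fold change beyond 1 in size. The labels give the replicate number as a batch, so numbers pair libraries: deviations of same-numbered libraries correlated over 9794 genes at 0.12 (Control with Model), 0.14 (MUS with Model) and -0.09 (MUS with Control), and the block was an alternative. GC content, from the longest M21 transcript, was at hand for 9785 tested genes. The fit, the block and voom were run on simulated data with known changes in Model. Those data held no replicate effect, so they do not test what the block removes. The GC correction was run only on the measured values with a linear GC trend added to a library. Python 3.11.15 (pandas 2.3.3, NumPy 2.4.6, Matplotlib 3.10.9) made tables and figures.

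The members, lists, motifs and alternatives were chosen with earlier results of these data known. Named genes are the 10 members, up to 3 genes that rose and 3 that fell most in each related list in the comparisons of Model with Control and of MUS with Model, and the 2 genes most like each tested member.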

Additional observations from a re-analysis of the deposited data

How the results depend on the processing

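The only member called in the fit was Polrmt in MUS vs. Control. Over the alternatives its log2 fold change kept its sign but ran from -1.52 to -0.01. DEGs among all genes numbered 1475 in Model vs. Control, 0 in MUS vs. Model and 1980 in MUS vs. Control. With no filter they were 260 and 456 in the comparisons with Control. With only the 2 groups compared in the fit they were 797 in Model vs. Control and 7 in MUS vs. Model. A pseudocount of 0.1 gave 1 in MUS vs. Model. With the replicate number as a block there were 4 DEGs in MUS vs. Model. Among the members and the genes named from the related lists, the block alone ended the calls of Polg2 and changed no other. Leaving out a library gave 692 to 2077, 0 to 31 and 184 to 2398 DEGs, with the lowest count in Model vs. Control without Model replicate 1, the highest in MUS vs. Model without Model replicate 2 and the lowest in MUS vs. Control without MUS replicate 1. Of the DEGs in Model vs. Control, 63.1% were higher on the deposited scale, 29.5% on the fragment scale, 29.8% when rescaled without mitochondrial and the 20 highest genes, and 49.7% after quantile normalization. In MUS vs. Control these shares were 55.9%, 27.7%, 27.1% and 44.5%.

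DEGs among the members were 0 in each comparison. In Model vs. Control there was 1 on the fragment scale, 1 when rescaled as above (both Tfb2m) and 1 with voom at a mean FPKM of at least 0.5 (Twnk). In MUS vs. Control there was 1 with a pseudocount of 0.1, 1 on the fragment scale, 1 when rescaled and 1 with voom (each Polrmt), and 2 with voom at the lower filter. Leaving out a library gave 0 in every case. For Model vs. Control the median of the members was a log2 fold change of 0.01, and -0.28 on the fragment scale, -0.28 when rescaled, -0.11 after GC correction and -0.10 with voom, both at the lower filter, and -0.11 to 0.14 with a library left out. In MUS vs. Control it was 0.10, and 0.22 at a mean FPKM of at least 5, -0.20 on the fragment scale, -0.21 when rescaled, -0.11 after GC correction with or without the replicate block, -0.18 after it at the lower filter, and -0.028 to 0.19 with a library left out. In MUS vs. Model it was 0.04, and 0.02 to 0.11 with a library left out. The causes were not tested. The call of Polrmt in MUS vs. Control was kept in 15 of 23 alternatives, and with no filter its adjusted limma p was 0.130. The alternatives at a mean FPKM of at least 0.5 and with GC correction were chosen after seeing the data. Few fragments limit what can be said of Twnk, with 21 to 34 in stimulated libraries, and of Slirp most. Whether depth or the overlap with other genes accounts for the low count of Slirp was not tested.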
